A study of Mus musculus with 15 samples.

Results

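The DQD form of Twist1 was compared with wild-type Twist1 (WT) across the transcriptome of Myc-CaP cells, a mouse prostate cancer line driven by Myc. The comparison rests on the 3 arrays labelled DQD and the 3 labelled WT, which are 6 of 15 arrays, and on all 19297 genes that a probe set names without ambiguity. The other groups hold 3 arrays each of cells with an empty vector (VEC), with the AQA form and with the F191G form, and they entered the model that estimates the spread. All groups share the same cells, which were transfected, selected and grown to confluence before harvest. The labels say neither whether a group is a clone or a pool, nor whether replicates A, B and C are separate cultures. The p-values therefore speak for the spread among the arrays, and part of that spread could be technical.

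Twist1, a helix-loop-helix factor with a basic DNA-binding region, pairs with E proteins, binds E-boxes and is known for driving epithelial-mesenchymal transition (EMT) in carcinoma. DQD and AQA are forms of a threonine-glutamine-serine motif of that domain. DQD carries aspartate in place of the threonine and serine, a change often used to mimic their phosphorylation, and AQA carries alanine, which cannot be phosphorylated. F191G lies in the Twist box, nearer the end of the protein. These substitutions are background, since the labels give the names of the forms alone.

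WT replicate A stood apart from the other arrays before any gene was tested. Its median correlation with the other 14 arrays was 0.982, against at least 0.994 for the others, and its lowest, 0.975, was with DQD replicate A. Counts of called genes and of list members are therefore given with and without this array. DQD arrays had slightly wider distributions than WT arrays, with standard deviations over genes of 2.37 to 2.41 against 2.32 to 2.34. The arrays fall into 2 labelled batches. Batch A holds WT replicates A and B with DQD replicate A, and batch B holds WT replicate C with DQD replicates B and C. Averaged over the groups, though not within each, the deposited values hold no batch difference. The fitted batch coefficient, shared by the groups, was at most 5e-09 in size for any gene. With all 15 arrays the batch term therefore moved no difference. It used a degree of freedom and, as the batches are unevenly spread over DQD and WT, also widened the SE. The labels do not state how this came about. It bears on the values within a batch too, and on those with an array left out. Whether WT replicate A entered the deposited values of other arrays is unknown, so leaving it out may not remove its whole part.

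Twist1 itself did not pass the test. The design text mentions a normalization by Twist1 expression whose form is not given, and whether it is in these values is unknown. Such a step would bear on this gene, so its value is no check of the labels. Its probe set read 6.62, 6.74 and 6.97 (log2) in DQD replicates A, B and C, and 6.77, 6.85 and 6.75 in WT. The groups overlapped, and the difference was -0.01 (SE 0.151, limma adjusted p = 0.964). The VEC arrays read 6.45, 6.71 and 6.13. This probe set does not tell introduced Twist1 from the cells' own, and protein levels were not analysed here.

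In DQD cells, 2272 genes were higher than in WT cells and 2463 were lower at an adjusted p under 0.05, together 24.5% of genes tested, with 11.8% higher and 12.8% lower. Among the largest rises were those of the replication gene Pole2 and the mitotic gene Ncapg2. Among the largest falls were those of Ogn, which encodes the matrix proteoglycan osteoglycin, of Angptl7, a secreted angiopoietin-like factor, and of Igfbp5, whose protein binds insulin-like growth factors. Most differences were small: 1734 of the higher and 2000 of the lower genes changed by under 1.5-fold, while 141 rose and 154 fell by at least 2-fold. The median difference (log2, DQD minus WT) was 0.40 for the higher genes, -0.34 for the lower genes and -0.07 for all genes.

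With WT replicate A left out, 1064 genes were higher (5.51% of genes tested) and 1054 lower (5.46%). All 4735 genes called with every array kept their sign, and 2095 of them kept the call. Without DQD replicate A, 0 genes passed, with a smallest adjusted p of 0.0694 and 5504 genes at an unadjusted p under 0.05; again all 4735 kept their sign. Within batch B (2 DQD arrays against 1 WT array), 163 genes were higher (0.845%) and 167 lower (0.865%), and here and in batch A the lone array was assumed to vary like the other groups. Within batch A (1 against 2), limma called 0, with 4287 genes at an unadjusted p under 0.05. All 4735 genes had the same sign in each batch taken alone. In 2267 of the 2272 higher and 2428 of the 2463 lower genes the DQD and WT arrays did not overlap. The kept signs were therefore largely fixed by the choice of genes and are no independent check.

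The split between higher and lower genes depended on the scaling. With each array centred on its median, which raised every difference by the same amount, 3677 genes were higher (19.1%) and 999 lower (5.18%). A second quantile normalization moved the counts at all levels. Among the dimmest 6432 genes 47 were higher and 574 lower, and after it 102 and 126. In the middle 6432 genes 522 were higher and 1172 lower, against 542 and 537 after it. Among the brightest 6433 genes 1703 were higher and 717 lower, against 1000 and 915 after it. List counts that these scalings turn are given with their values under them.

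**Figure D1:**
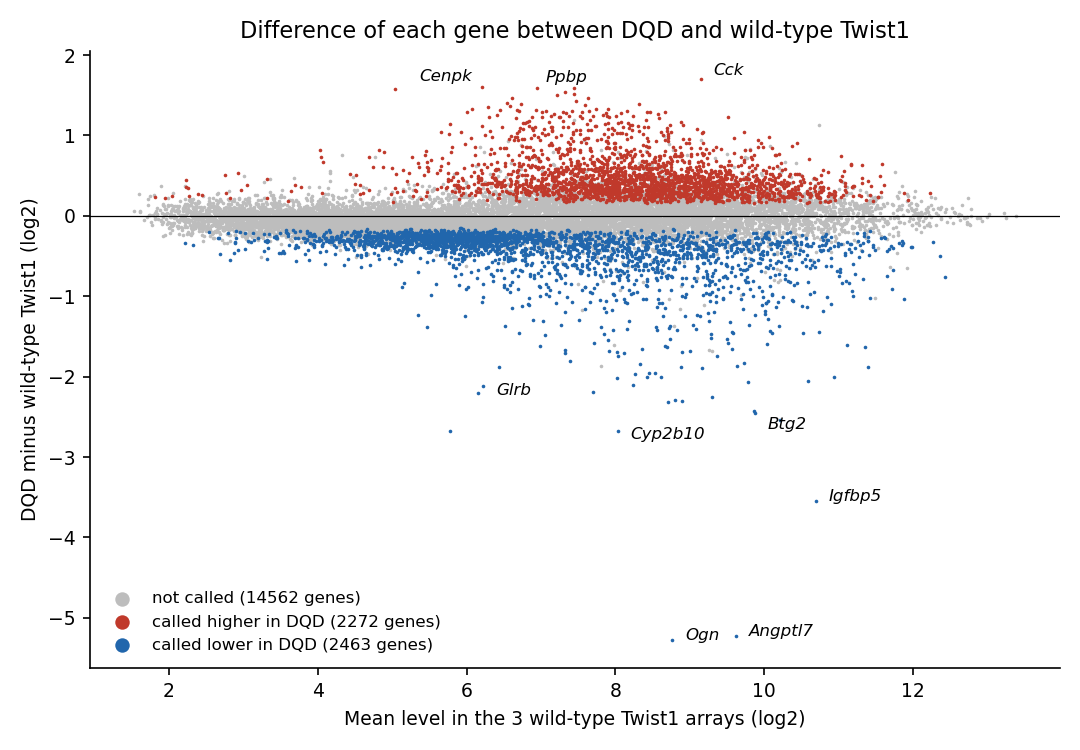
Each point is a gene, with its mean level in the 3 WT arrays on the horizontal axis and the DQD minus WT difference on the vertical axis (both log2); red and blue mark the 2272 genes called higher and the 2463 called lower. Ogn and Angptl7 lie apart at -5.27 and -5.23.

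Ogn and Angptl7 fell furthest. Ogn read 2.97, 4.18 and 3.32 in DQD replicates A, B and C, against 10.62, 6.37 and 9.3 in WT. Every DQD array lay below every WT array, and the difference was -5.27 (SE 0.935, adjusted p = 0.0094). This order of the arrays held for 27.9% of all genes and for 2428 of the 2463 genes called lower. Here and below, a lack of overlap therefore adds little to a call. The Ogn values in DQD replicates A and C lay below the 10th percentile of those arrays (3.72 and 3.75), so no fold is given. Angptl7 read 4.18, 4.69 and 4.29 in DQD and 11.2, 7.35 and 10.31 in WT. Its groups did not overlap either, with a difference of -5.23 (SE 0.858, adjusted p = 0.00774). In both genes WT replicate B was the lowest of the WT arrays by a wide margin. Without WT replicate A the differences were -4.39 (adjusted p = 0.0142) and -4.48 (adjusted p = 0.0127), and within batch B they were -5.54 and -5.82. The VEC arrays read 3.99 to 5.37 for Ogn and 4.55 to 5.89 for Angptl7. Omd, the gene of another small leucine-rich proteoglycan, fell by 1.38 (adjusted p = 0.0146). Aspn (-0.12, adjusted p = 0.447) and Ecm2 (-0.19, adjusted p = 0.19), of related matrix proteins, did not pass. Over the 20 measured proteoglycan and angiopoietin-like genes, 4 fell and 0 rose, the fourth being Angptl4 (-0.93), and the list median was -0.13. Without WT replicate A 4 fell and 0 rose. The share of the list called with all arrays was 20.0%, against 24.5% of all genes.

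The promoter windows of both genes are shown because Twist factors bind E-boxes. They run 5′ to 3′ from 250 bases before to 50 after the RefSeq start site (GRCm38.p6), with every E-box (CANNTG) in capitals. The Ogn window, chr13:49607765-49608064 on the plus strand, holds 4 and the Angptl7 window, chr4:148500413-148500712 on the minus strand, holds 3.
Ogn: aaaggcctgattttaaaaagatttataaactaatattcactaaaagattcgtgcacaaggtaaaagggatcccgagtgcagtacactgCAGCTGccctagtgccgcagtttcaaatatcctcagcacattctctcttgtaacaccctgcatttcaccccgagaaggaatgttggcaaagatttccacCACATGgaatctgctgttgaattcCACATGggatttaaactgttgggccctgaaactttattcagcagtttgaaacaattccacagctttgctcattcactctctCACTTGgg
Angptl7: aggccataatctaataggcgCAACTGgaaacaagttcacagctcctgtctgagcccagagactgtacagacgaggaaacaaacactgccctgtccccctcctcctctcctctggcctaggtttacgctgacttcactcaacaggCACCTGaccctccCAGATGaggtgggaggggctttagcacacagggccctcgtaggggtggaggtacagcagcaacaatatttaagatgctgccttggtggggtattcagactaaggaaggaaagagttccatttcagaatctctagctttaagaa
An E-box is common in such windows: 68.1% of the 12570 tested genes with a single window hold at least 1, as do 70.8% of the genes called lower and 58.6% of those called higher. These letters are a description and do not show that Twist1 binds there.

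Growth factor, receptor and binding protein genes fell more often than they rose. The list, like the others here, was chosen with earlier results of these data known, so its count is a description and no independent evidence of a direction. Of 61 measured members 19 fell and 3 rose, with a median of -0.14 (10 and 1 without WT replicate A). The share called with all arrays was 36.1%, against 24.5% of all genes. Igfbp5 read 6.62, 7.76 and 7.03 in DQD and 12.02, 9.27 and 10.77 in WT, so the groups did not overlap. It fell by 3.55 (SE 0.611, adjusted p = 0.00876), and its difference without WT replicate A was -2.92. The insulin receptor gene Insr (-1.01), the insulin receptor substrate genes Irs1 (-0.54) and Irs2 (-0.7), the fibroblast growth factor receptor genes Fgfr3 (-1.05) and Fgfr2 (-0.76) and the ligand gene Pdgfc (-1.08) fell too. Fgf7 (0.98), Met, the receptor gene of hepatocyte growth factor (0.39), and Ror1 (0.39) rose.

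**Figure D2:**
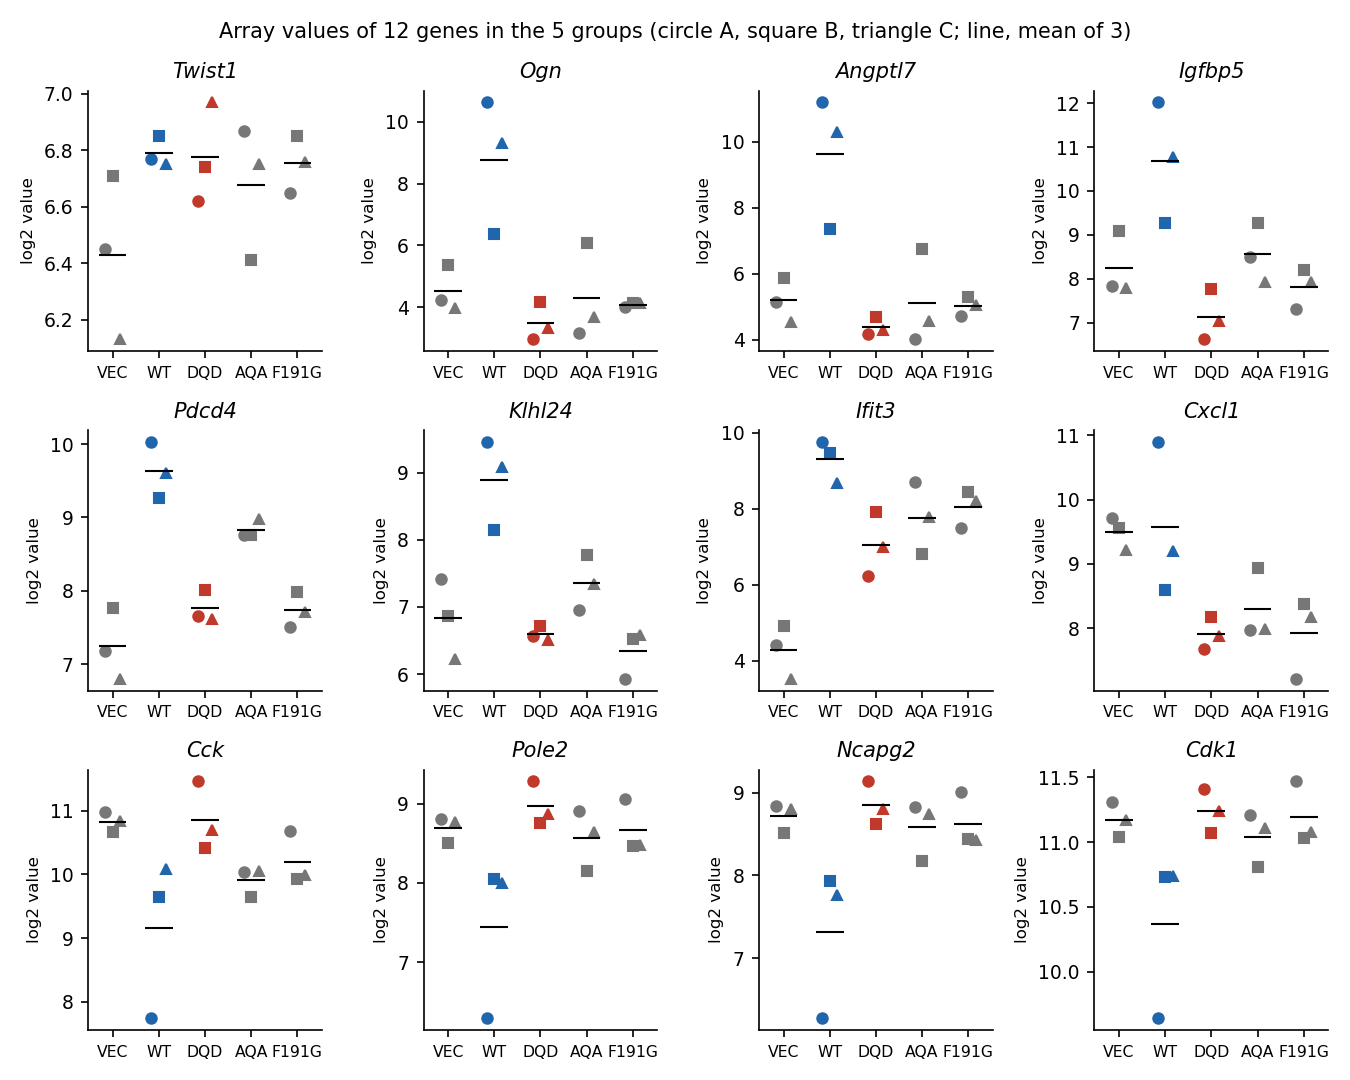
Log2 values of 12 genes on each of the 15 arrays, by group, with WT in blue and DQD in red; circles, squares and triangles are replicates A, B and C and each line is the mean of 3. For Ogn, Angptl7, Igfbp5, Pdcd4 and Klhl24 the DQD arrays sit below the WT arrays, and for Cck, Pole2, Ncapg2 and Cdk1 they sit above them, with WT replicate A lowest.

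Most genes that copy DNA rose. Of 58 measured members of the replication list 52 rose and 0 fell, and in 58 every DQD array lay above every WT array, as it did for 20.2% of all genes. The list median was 0.88, and 89.7% of the list was called, against 24.5% of all genes. With WT replicate A left out, 38 rose, 0 fell and the median was 0.55. The median was 1.25 within batch A and 0.45 within batch B. Relative to the VEC mean, the mean of the members was 0.23, -0.08 and 0.01 on DQD replicates A, B and C and -1.59, -0.50 and -0.48 on WT. WT replicate A was the lowest, and WT replicates B and C also lay below every DQD array.

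Pole2, a subunit gene of DNA polymerase epsilon, read 9.28, 8.75 and 8.87 in DQD and 6.29, 8.05 and 8.0 in WT, with no overlap and a rise of 1.52 (SE 0.387, adjusted p = 0.0198). The rise was 0.98 (adjusted p = 0.018) without WT replicate A and 0.82 (adjusted p = 0.0388) within batch B. Gins1, part of the replicative helicase, rose by 1.51 and Dscc1, which serves clamp loading for cohesion, by 1.58. Outside the list, Atad5, which unloads the replication clamp, rose by 1.47 and the chromatin remodeller gene Hells by 1.46. The helicase genes Mcm2 (0.97), Mcm3 (1.17), Mcm4 (1.08), Mcm5 (0.91), Mcm6 (1.04) and Mcm7 (0.76) rose. Of these, Mcm3 (0.62, adjusted p = 0.0596) and Mcm5 (0.5, adjusted p = 0.0512) did not pass without WT replicate A. The clamp gene Pcna rose by 0.63 (adjusted p = 0.0392) and likewise did not pass without that array (0.35, adjusted p = 0.065). Among genes of S-phase entry, the cyclin gene Ccne2 rose by 1.18, the kinase gene Cdk2 by 0.71 and Cdc7, whose kinase fires origins, by 0.95.

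Most mitotic genes rose as well. Of 65 measured members 55 rose and 0 fell, with a median of 1.01. The share called was 84.6%, against 24.5% of all genes. In 65 every DQD array lay above every WT array, as in 20.2% of all genes. With WT replicate A left out, 40 rose, 0 fell and the median was 0.58, and within batches A and B it was 1.39 and 0.48. Ncapg2, a subunit gene of condensin II, read 9.14, 8.62 and 8.81 in DQD and 6.27, 7.93 and 7.76 in WT, with no overlap and a rise of 1.53 (SE 0.358, adjusted p = 0.0157). The condensin core gene Smc2 rose by 1.39, the centromere gene Cenpk by 1.6 and the kinesin gene Kif18a by 1.39. Outside the list, Sgo1, which protects centromeric cohesion, rose by 1.43 and Fbxo5, whose protein restrains the anaphase-promoting complex, by 1.59. Cdk1, the mitotic kinase gene, read 11.41, 11.07 and 11.24 in DQD and 9.64, 10.73 and 10.74 in WT, again with no overlap and a rise of 0.87 (SE 0.248, adjusted p = 0.0267). Top2a, which untangles chromosomes, rose by 1.05 and the proliferation marker Mki67 by 0.98. Plk1, another mitotic kinase gene, did not pass (0.65, adjusted p = 0.0879). Mki67 (adjusted p = 0.0513), Bub1 (0.0523), Aurka (0.0626) and Aurkb (0.0775) did not pass without WT replicate A.

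Genes of homologous recombination, the Fanconi pathway and the DNA damage checkpoint rose in 33 of 41 cases and fell in 0. The median was 0.84 (28 and 0 without WT replicate A, median 0.58). The share called was 80.5%, against 24.5% of all genes. The recombination genes Brca1 and Brca2 rose by 1.02 and 1.06, the checkpoint kinase gene Chek1 by 1.05, Fancd2 by 1.1 and, outside the list, Fignl1, which acts in recombination, by 1.38. Nucleolar ribosome biogenesis genes moved less far, with 43 of 54 higher (79.6% called), 0 lower and a median of 0.42. Utp18, of the small subunit processome, rose by 0.69, the helicase gene Ddx10 by 0.59, the fibrillarin gene Fbl by 0.47 and the nucleolin gene Ncl by 0.43. In this list 22 rose without WT replicate A (median 0.28), with Fbl (adjusted p = 0.0543) and Ncl (0.0547) not among them. Within batch B 1 was called higher, and the median was 0.21.

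**Figure D3:**
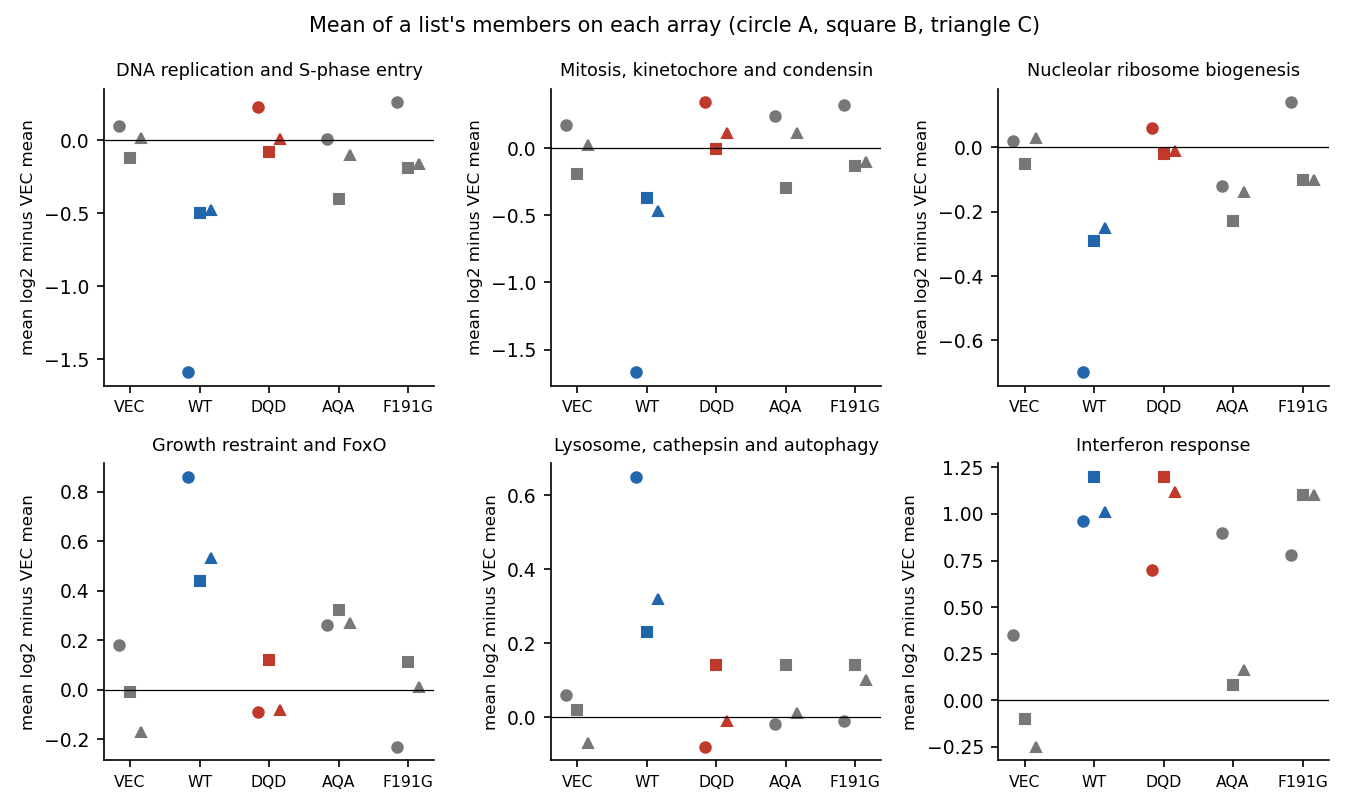
Mean log2 value of the members of 6 lists on each array, relative to the mean of the 3 VEC arrays; circles, squares and triangles are replicates A, B and C. For the replication and mitosis lists the WT arrays lie below all DQD arrays, with WT replicate A lowest at -1.59 and -1.67, while for the interferon list WT and DQD arrays overlap.

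Windows of 3 of the risen genes are shown with the letters that mark E2F sites (TTTNNCGC) or the cell cycle homology region, CHR (TTTGAA or TTCGAA), both strands counted. The 3 shown hold such letters, and not every window looked up did. Among others looked up, the Mcm5 window held 2 E2F matches, while those of Cdc45 (E2F) and Kif18a (CHR) held 0. E2F factors act on S-phase genes and the CHR is an element of mitotic promoters. The Pole2 window lies at chr12:69228141-69228440 on the minus strand and the Ncapg2 window at chr12:116405186-116405485 on the plus strand, with E2F letters in capitals. The Smc2 window lies at chr4:52438971-52439270 on the plus strand, with CHR letters in capitals.
Pole2: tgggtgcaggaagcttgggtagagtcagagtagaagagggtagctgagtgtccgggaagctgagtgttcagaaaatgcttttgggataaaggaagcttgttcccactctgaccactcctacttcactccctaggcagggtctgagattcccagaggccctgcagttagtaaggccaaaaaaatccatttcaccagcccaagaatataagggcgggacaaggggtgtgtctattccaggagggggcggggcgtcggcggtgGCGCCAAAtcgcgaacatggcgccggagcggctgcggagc
Ncapg2: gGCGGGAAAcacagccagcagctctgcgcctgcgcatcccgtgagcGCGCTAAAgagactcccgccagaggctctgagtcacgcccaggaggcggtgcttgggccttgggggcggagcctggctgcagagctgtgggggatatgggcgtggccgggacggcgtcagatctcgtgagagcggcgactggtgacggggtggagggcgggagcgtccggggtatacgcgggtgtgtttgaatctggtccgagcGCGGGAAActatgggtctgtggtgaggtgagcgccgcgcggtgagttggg
Smc2: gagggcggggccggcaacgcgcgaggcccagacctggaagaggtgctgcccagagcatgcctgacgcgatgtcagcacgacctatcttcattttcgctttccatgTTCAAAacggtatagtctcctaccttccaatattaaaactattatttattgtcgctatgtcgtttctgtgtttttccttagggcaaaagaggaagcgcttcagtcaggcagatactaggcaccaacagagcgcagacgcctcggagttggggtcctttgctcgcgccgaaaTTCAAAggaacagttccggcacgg
E2F letters were present in 37.5% of the 40 replication genes with a single window, in 26.4% of the 106 genes called higher by at least 2-fold and in 6.92% of all such genes. CHR letters were present in 76.5% of the 51 mitotic genes and in 44.3% of the 106, against 17.2% of all. Among the 98 genes called lower by at least 2-fold the shares were 7.14% and 13.3%. Over all 1567 genes called higher with a single window, E2F letters were present in 14.4% and CHR letters in 18.1%. Over the 1589 called lower the shares were 5.54% and 13.4%. The median GC content of the windows was 58.3% in both 2-fold groups and 57.3% overall. A match is a description and not a site.

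Genes of the growth restraint list fell more often than they rose. This list holds FoxO factors and their targets, inhibitors of growth signalling, and the core members Pdcd4, Klhl24 and Kdm7a. It too was chosen with earlier results of these data known, so its count is no independent evidence of a direction. Of 28 measured members 16 fell and 1 rose, with a median of -0.47 (13 and 0 without WT replicate A, median -0.38). With all arrays 60.7% of the list was called, against 24.5% of all genes. Pdcd4, an inhibitor of translation initiation, read 7.66, 8.01 and 7.61 in DQD and 10.03, 9.26 and 9.6 in WT, with no overlap and a difference of -1.87 (SE 0.239, adjusted p = 0.00747). Klhl24, a Kelch family gene, read 6.57, 6.71 and 6.51 in DQD against 9.46, 8.14 and 9.09 in WT, again with no overlap, and fell by 2.3 (SE 0.352, adjusted p = 0.00759). The histone demethylase gene Kdm7a fell by 2.01 and Ddit4, which inhibits the growth kinase mTOR, by 1.89. Without WT replicate A, Pdcd4, Klhl24, Kdm7a and Ddit4 were again called. Foxo1, the transcription factor gene, fell by 0.44 (adjusted p = 0.0259) but was not called without WT replicate A (adjusted p = 0.0778). Txnip, which limits glucose uptake, fell by 1.02, Sesn3 by 0.75 and the antiproliferative gene Tob1 by 0.71. Arrdc4 was the member that rose (0.29).

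Of 37 p53 targets and cyclin-dependent kinase inhibitors 11 fell and 1 rose, with a median of -0.14 (7 and 1 without WT replicate A, median -0.03). With median centring the balance turned, to 7 lower and 9 higher. With all arrays 32.4% of the list was called, against 24.5% of all genes. Btg2, an antiproliferative p53 target, read 7.09, 7.92 and 7.29 in DQD and 10.91, 8.85 and 9.88 in WT, with no overlap and a difference of -2.45 (SE 0.438, adjusted p = 0.0094). Trp53inp1, a stress gene induced by p53, fell by 2.1, Sesn1 by 1.18 and Mdm2, which restrains p53, by 0.4. Rbl1, a pocket protein gene, was the member that rose (1.1). Cdkn1b (-0.19, adjusted p = 0.242) and Cdkn2a (0.12, adjusted p = 0.181) did not pass.

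Myc did not pass, at 10.23, 10.33 and 10.25 in DQD and 10.27, 10.16 and 10.27 in WT (0.04, adjusted p = 0.862). Its antagonists Mxd4 (-1.37, SE 0.251, adjusted p = 0.00977), Mnt (-0.47) and Mxd1 (-0.47) fell, while the partner gene Max (0.11, adjusted p = 0.192) and Mxi1 (-0.22, adjusted p = 0.0564) did not pass. When WT replicate A was left out, Mxd4 (adjusted p = 0.0132) and Mnt (0.0428) were called and Mxd1 (0.064) was not. Over the 24 members of the Myc network, which includes known targets, 7 were higher and 5 lower, against 1 and 2 with WT replicate A left out. The balance turned after the second quantile normalization, to 2 higher and 4 lower. With median centring 9 were higher and 3 lower. The cyclin D1 gene Ccnd1 rose by 0.64, Odc1, which makes polyamines, by 0.59 and the transferrin receptor gene Tfrc by 0.56.

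Lysosome and autophagy genes fell in 25 of 49 cases and rose in 3, with a median of -0.35 (14 and 3 without WT replicate A, median -0.22). The share called was 57.1%, against 24.5% of all genes. The cathepsin gene Ctsl read 9.61, 10.05 and 9.73 in DQD and 11.38, 10.47 and 10.83 in WT, with no overlap and a difference of -1.1 (SE 0.201, adjusted p = 0.00977). Gaa, the lysosomal glucosidase gene, fell by 1.13, the sphingomyelinase gene Smpd1 by 1.04, the ganglioside activator gene Gm2a by 0.84 and the autophagy receptor gene Sqstm1 by 0.75. Ctsd, another cathepsin gene, fell by 0.91 (adjusted p = 0.0286) but was not called without WT replicate A (adjusted p = 0.0695). The members that rose were the transcription factor gene Mitf (0.46), Atg5 (0.38) and Gla (0.49). Lamp1 (-0.11, adjusted p = 0.433) and Lamp2 (-0.17, adjusted p = 0.123), of lysosomal membrane proteins, did not pass. In the list of the unfolded protein response and integrated stress response 47.5% were called. Of its 59 members 25 fell and 3 rose, with a median of -0.15 (17 and 1 without WT replicate A). Xbp1, a transcription factor gene of this response, fell by 0.83 (SE 0.16, adjusted p = 0.0106), Atf3 by 1.36, the chaperone genes Dnajb9 by 1.16 and Hspa5 by 0.34, and Ddit3 by 0.61. Atf4 did not pass (0.06, adjusted p = 0.609). The members that rose, Gars (0.43), Shmt2 (0.51) and Psph (0.4), serve amino acid metabolism and tRNA charging.

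**Figure D4:**
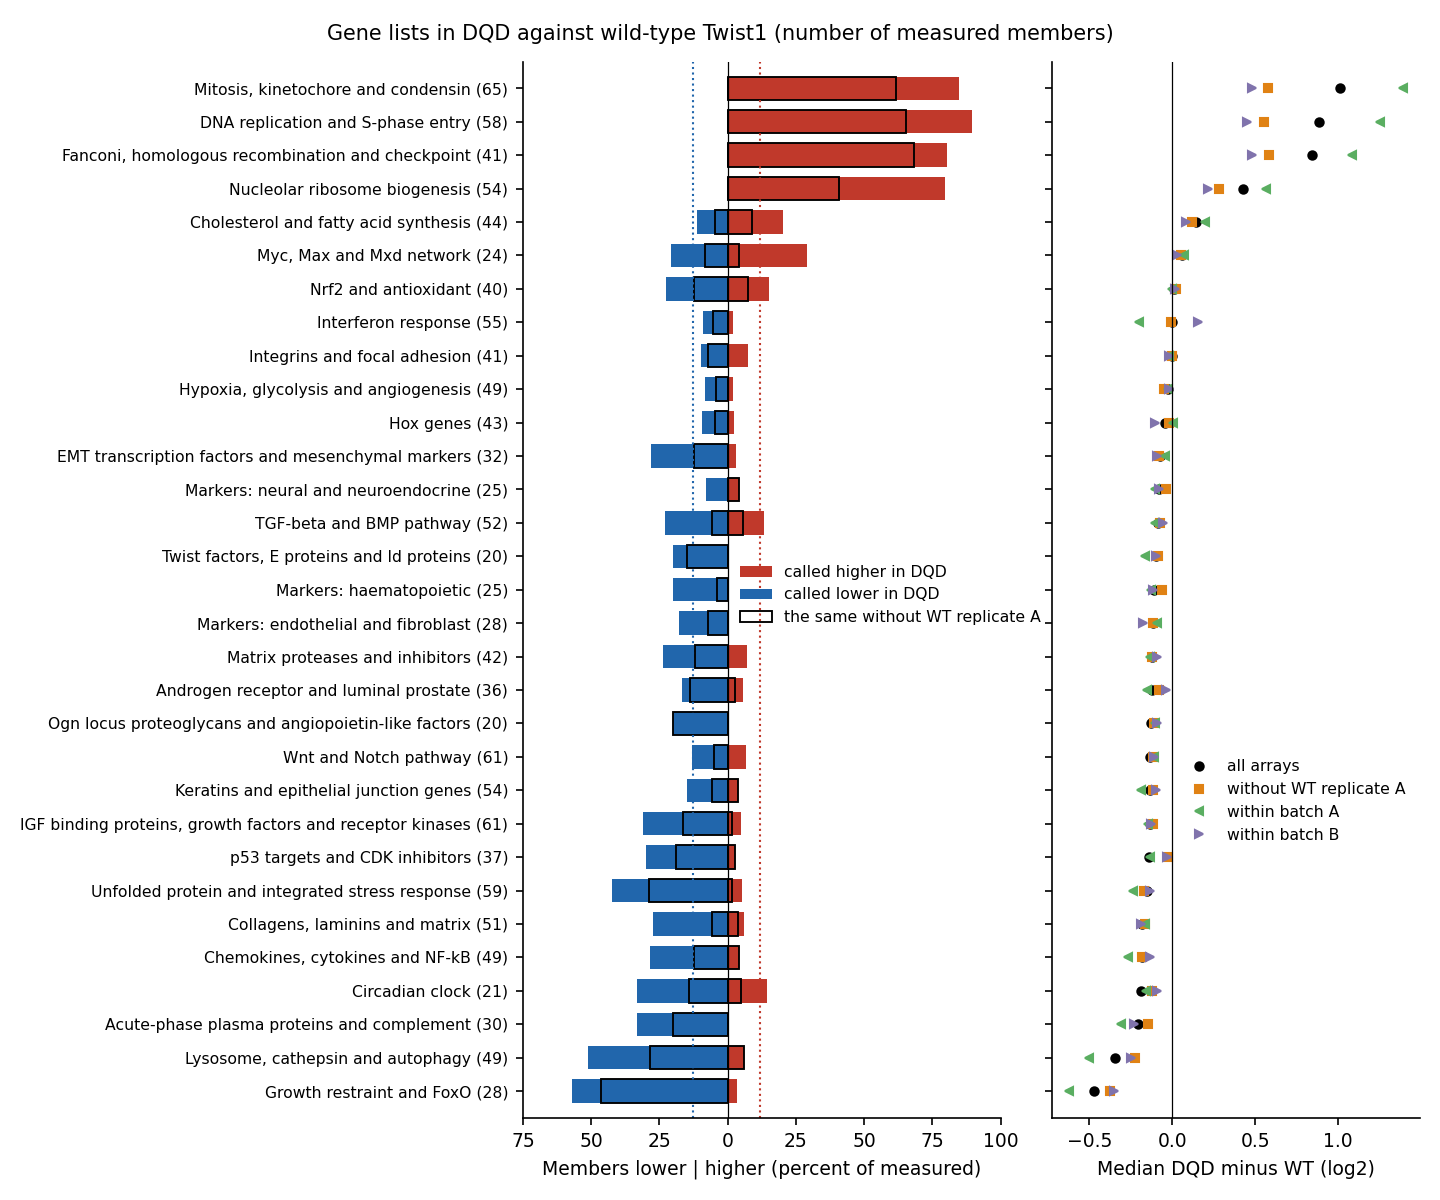
Left, percent of the measured members of each of 31 lists called higher (red) or lower (blue) in DQD against WT, with black outlines for the same without WT replicate A and dotted lines at the 11.8% and 12.8% of all genes; right, median DQD minus WT (log2) over the members with all arrays, without WT replicate A and within each batch. The lists of mitosis, replication, repair and ribosome biogenesis have medians above 0 under each array set, and the growth restraint and lysosome lists have medians below 0.

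Inflammatory genes fell more often than they rose. Of 49 chemokine, cytokine and NF-kB genes 14 fell and 2 rose, with a median of -0.18 (6 and 2 without WT replicate A). With all arrays 32.7% of the list was called, against 24.5% of all genes. Nfkbia, the inhibitor that NF-kB itself induces, read 9.2, 9.82 and 9.5 in DQD and 12.01, 10.38 and 10.96 in WT, with no overlap and a difference of -1.61 (SE 0.375, adjusted p = 0.0155; 0.0278 without WT replicate A). The chemokine gene Cxcl1 fell by 1.65 (adjusted p = 0.0315) but was not called without WT replicate A (-1.02, adjusted p = 0.0624). The NF-kB subunit gene Nfkb2 fell by 0.77. Rela, of another subunit, did not pass (-0.18, adjusted p = 0.114). The members that rose, Ppbp and Cxcl5, encode neutrophil chemokines. Ppbp read 8.92, 8.17 and 8.53 in DQD and 5.92, 7.46 and 7.47 in WT, with no overlap and a rise of 1.59 (SE 0.37, adjusted p = 0.0155), and Cxcl5 rose by 0.77 (SE 0.127, adjusted p = 0.00774). Acute-phase and complement genes, with 33.3% called, fell in 10 of 30 cases and rose in 0 (6 and 0 without WT replicate A). Among them were the haptoglobin gene Hp (-2.19), the apolipoprotein gene Apof (-2.32), Lbp, which binds bacterial lipopolysaccharide (-1.88), and the fibrinogen gene Fgg (-1.24). Fgb (-1.86, adjusted p = 0.0708) and Fga (0.05, adjusted p = 0.774), the other fibrinogen genes, did not pass.

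The interferon response list gave no common shift between DQD and WT. Of 55 members 5 fell and 1 rose, together 10.9% against 24.5% of all genes (3 and 0 without WT replicate A), and the median was 0.0. Its mean relative to VEC was 0.70, 1.20 and 1.12 on the DQD arrays and 0.96, 1.20 and 1.01 on the WT arrays. The median was -0.2 within batch A and 0.15 within batch B, where 5 were higher and 1 lower. A difference between the batches was not tested. Ifit3, an antiviral gene, fell, at 6.23, 7.91 and 6.99 in DQD and 9.76, 9.46 and 8.67 in WT, with no overlap (-2.25, SE 0.537, adjusted p = 0.0168; 0.0397 without WT replicate A). The VEC arrays, at 4.4, 4.9 and 3.52, were lower than every array of both groups. The near copy Ifit3b fell by 2.2, and the probe sets of these genes may share signal, so both values are uncertain. The transcription factor gene Irf1 fell by 1.84, Tapbp, which loads peptides on class I molecules, by 0.84, and Ifitm1 by 0.33, while Herc6 rose by 0.94. Tapbp did not pass without WT replicate A (adjusted p = 0.0879). The antiviral gene Ifit1 (0.63, adjusted p = 0.42), the RNA sensor gene Ddx58 (-0.08, adjusted p = 0.89) and Irf7 (0.09, adjusted p = 0.92) did not pass. The Ifit3 window, chr19:34583279-34583578 on the plus strand, is shown for its 2 matches to the interferon-stimulated response element (both strands, in capitals), which 45.7% of 35 interferon list windows and 3.44% of all hold.
Ifit3: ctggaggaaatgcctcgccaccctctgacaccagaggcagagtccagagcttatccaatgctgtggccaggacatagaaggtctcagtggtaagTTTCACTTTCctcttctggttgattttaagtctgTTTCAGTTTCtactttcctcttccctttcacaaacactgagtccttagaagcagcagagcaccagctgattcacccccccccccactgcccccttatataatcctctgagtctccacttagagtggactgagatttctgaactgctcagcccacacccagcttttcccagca

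EMT genes moved little. The epithelial cadherin gene Cdh1 read 5.4, 5.41 and 5.54 in DQD and 5.75, 5.7 and 5.73 in WT, with no overlap and a difference of -0.27 (SE 0.0635, adjusted p = 0.0155). It did not pass after a second quantile normalization (adjusted p = 0.0903). The EMT regulator genes Snai1 (-0.27, adjusted p = 0.0184; 0.0472 after that normalization) and Zeb1 (-0.26, adjusted p = 0.0242; 0.183) were lower by like amounts. Vim (0.05), Fn1 (0.08), Cdh2 (-0.16), Snai2 (-0.06) and Zeb2 (0.11) did not pass. Of 32 EMT genes 9 fell and 1, the integrin gene Itga5 (0.63), rose, with a median of -0.07; 5 fell and 2 rose after the second normalization, and 4 and 0 did without WT replicate A. With median centring 3 fell and 3 rose. The share of the list called with all arrays was 31.2%, against 24.5% of all genes. The epithelial marker Epcam read 4.99, 4.82 and 5.03 in DQD and 5.03, 4.98 and 5.08 in WT and did not pass (-0.08, adjusted p = 0.388). The keratin gene Krt8 read 7.53, 7.8 and 7.58 and 8.39, 8.2 and 8.21 and did not pass either (-0.63, adjusted p = 0.0812). Detection calls were not used here, so these values do not say whether a marker was present.

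The Twist, E protein and Id family list had 20.0% called, below the 24.5% of all genes. Of its 20 genes 4 fell and 0 rose, against 3 and 0 without WT replicate A. They were Tcf4, an E protein gene (-0.46, SE 0.0914, adjusted p = 0.0113), Hand1 (-0.51), Msc (-0.42) and Bhlhe41 (-0.27; adjusted p = 0.0855 after the second normalization). The E protein genes Tcf3 (-0.06) and Tcf12 (0.08), Twist2 (0.06) and the inhibitor genes Id1 (0.27), Id2 (0.16), Id3 (-0.66, adjusted p = 0.084) and Id4 (-0.07) did not pass. Of 54 keratin and junction genes 8 fell and 2 rose, against 3 and 2 without WT replicate A. With all arrays 18.5% of this list was called, again below the share of all genes. After the second normalization 2 fell and 1 rose, and with median centring 2 fell and 5 rose. Jup, which encodes plakoglobin, fell by 1.11 (SE 0.249, adjusted p = 0.0145), and Krt6a, a keratin of activated epithelium, rose by 1.32 (SE 0.321, adjusted p = 0.0175).

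With all arrays, matrix genes fell more often than they rose. Shares called were 33.3% for matrix genes, 31.0% for proteases, 17.1% for integrins and 36.5% for the TGF-beta list, against 24.5% of all genes. Of 51 collagens, laminins and matrix genes 14 fell and 3 rose, against 3 and 2 without WT replicate A, 8 and 2 after the second normalization, and 4 and 3 with median centring. The fibulin gene Fbln2 fell by 1.25 and the laminin gene Lamb2 by 0.97. Col12a1, a fibril-associated collagen gene, read 7.93, 7.43 and 7.55 in DQD and 6.36, 6.84 and 6.76 in WT, with no overlap, and rose by 0.98 (SE 0.153, adjusted p = 0.00774). Of 42 matrix proteases and inhibitors 10 fell and 3 rose (5 and 0 without WT replicate A), among them the inhibitor genes Serpinf1 (-1.3), Timp2 (-0.67) and Timp1 (0.83). Of 41 integrin and focal adhesion genes 4 fell and 3 rose (3 and 0 without WT replicate A, 2 and 4 with median centring). In the TGF-beta and BMP pathway 12 of 52 fell and 7 rose, against 3 and 3 without WT replicate A and 7 and 10 with median centring. The ligand gene Tgfb2 fell by 1.58, the receptor gene Bmpr1b by 1.3 and the co-receptor gene Tgfbr3 by 0.63, while Smad2, which carries the signal, rose by 0.46 and Smad7, which inhibits it, by 1.07.

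Metabolic and hormonal lists were mixed. The share called was 24.5% over all genes. It was 31.8% for cholesterol and fatty acid, 37.5% for Nrf2, 22.2% for androgen receptor and 47.6% for circadian genes. Lower shares were called among hypoxia (10.2%), Wnt and Notch (19.7%) and Hox (11.6%) genes. Of 44 cholesterol and fatty acid genes 5 fell and 9 rose (2 and 4 without WT replicate A), with the synthesis genes Sqle (0.62), Cyp51 (0.68) and Acaca (0.42) among the rises and Lpin1 (-1.74) and Mylip, which degrades the low-density lipoprotein receptor (-0.8), among the falls. Of 40 Nrf2 and antioxidant genes 9 fell, such as Gstm1 (-1.06), and 6 rose, such as Gsr (0.52) and Taldo1 (0.56). The counts were 5 and 3 without WT replicate A, and turned to 6 and 10 with median centring. Nqo1 (-0.19) and Hmox1 (0.05) did not pass. Of 36 androgen receptor and luminal prostate genes 6 fell and 2 rose (5 and 1 without WT replicate A), with Mme, the neprilysin gene, at -2.06 (SE 0.369, adjusted p = 0.0094) and the prostate membrane gene Steap1 at 0.8. Of 49 hypoxia and glycolysis genes 4 fell and 1 rose (2 and 0 without WT replicate A, 2 and 4 with median centring), with Vegfd at -1.37 and the glycolytic gene Pgk1 at 0.29. Of 21 circadian genes 7 fell, such as Dbp (-0.68) and Per1 (-0.63), and 3 rose (3 and 1 without WT replicate A). Of 61 Wnt and Notch genes 8 fell and 4 rose (3 and 0 without WT replicate A). Of 43 Hox and cofactor genes 4 fell and 1, Pbx3 (0.3), rose (2 and 0 without WT replicate A), shares below those of all genes. With median centring the balance turned in both lists, to 3 lower and 7 higher, and to 1 and 4.

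In each list of markers of other cell types a smaller share was called than the 24.5% of all genes. It was 20.0% for haematopoietic markers, 17.9% for endothelial and fibroblast markers, and lower still for neural and neuroendocrine markers. Of 25 haematopoietic markers 5 fell and 0 rose (2 and 0 after the second normalization, 1 and 0 without WT replicate A), with summed log2 levels of 123.2 to 124.8 in DQD and 125.9 to 130.9 in WT. The leukocyte gene Ptprc read 4.4 to 4.49 against 4.51 to 4.64 and did not pass. Of 28 endothelial and fibroblast markers 5 fell and 0 rose (1 and 0 after that normalization, 2 and 0 without WT replicate A), with sums of 150.6 to 153.7 against 155.0 to 157.2, and the endothelial genes Pecam1 (-0.1) and Cdh5 (-0.02) did not pass. Of 25 neural and neuroendocrine markers 2 fell and 1 rose, with sums of 140.3 to 142.4 against 141.2 to 142.3. Both without WT replicate A and with median centring 0 fell and 1 rose. The part of these markers in the other results was not tested. The neural marker that rose was Cck, the gene of the peptide hormone cholecystokinin, which had the largest called rise. It read 11.46, 10.41 and 10.7 in DQD and 7.74, 9.64 and 10.08 in WT, with no overlap (1.7, SE 0.479, adjusted p = 0.0257). Its difference was 2.77 within batch A and 0.47 within batch B (adjusted p = 0.124). Chga (-0.14) and Syp (0.0), of secretory and synaptic vesicles, did not pass.

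**Figure D5:**
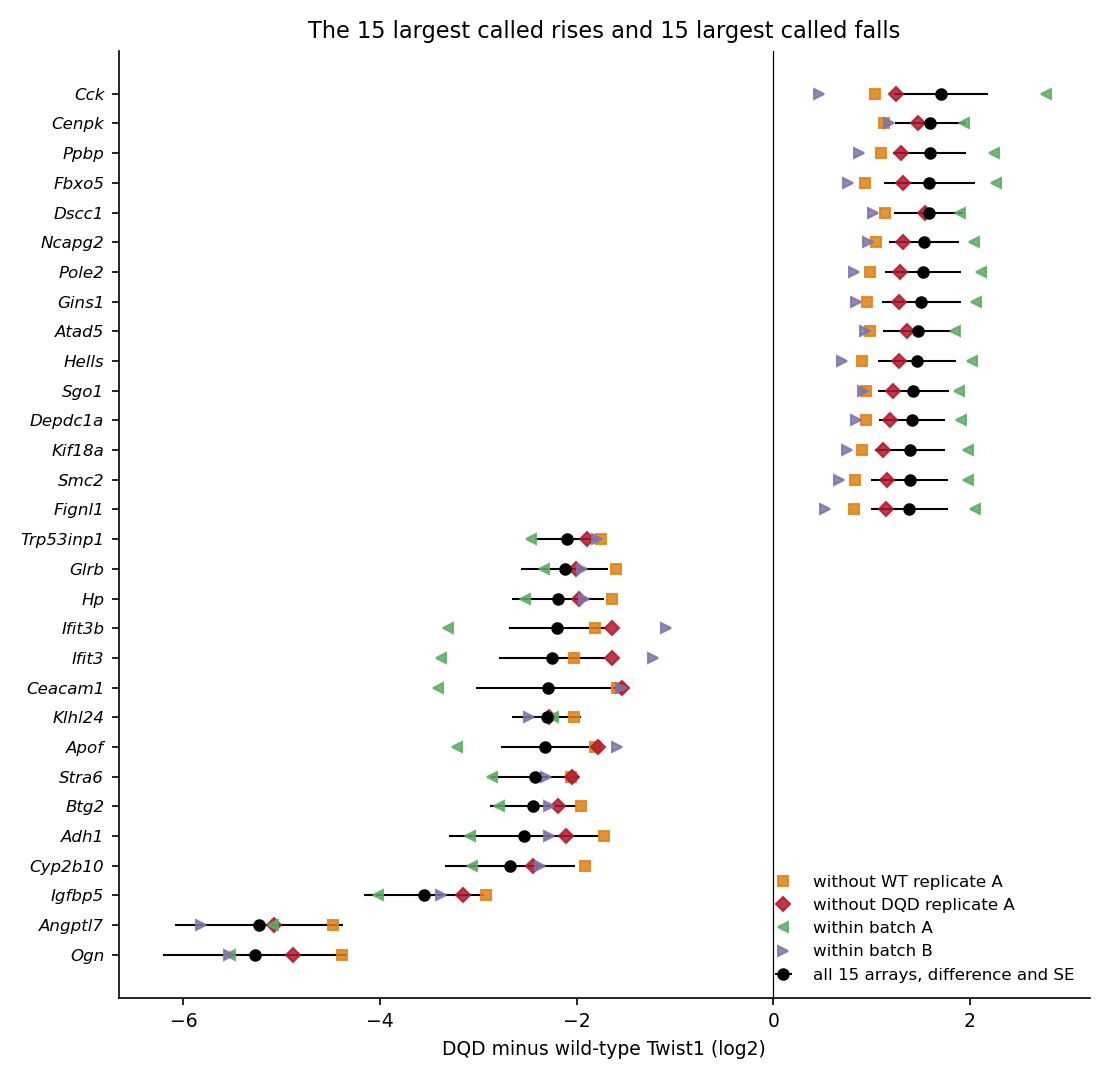
DQD minus WT difference (log2) of the 15 largest called rises and 15 largest called falls with all 15 arrays (black, bar = SE), and its value without WT replicate A, without DQD replicate A and within each batch. Each symbol keeps the side of 0 it has in black. The DQD and WT arrays do not overlap in any of these genes, so this was largely fixed in advance.

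Of the 15 largest rises 15 were called without WT replicate A too, and 9 within batch B. Of the 15 largest falls the numbers were 13 and 12. The falls lost were those of Adh1, an alcohol dehydrogenase gene, at -2.53 with all arrays and -1.72 without WT replicate A (adjusted p = 0.0848), and of Ceacam1, a cell adhesion gene, at -2.29 and -1.59 (adjusted p = 0.117). The falls not yet named were Cyp2b10, a cytochrome P450 gene (-2.68), Stra6, the retinol uptake receptor gene (-2.43), and Glrb, a glycine receptor subunit gene (-2.12).

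The same cells with the vector and the other forms share arrays with the comparison above, and their values are given side by side. Against VEC 157 genes were called in DQD (0.814%), 80 higher (0.415%) and 77 lower (0.399%), while 2466 were called in WT (12.8%), 1362 higher (7.06%) and 1104 lower (5.72%). Against WT 140 were called in AQA (0.726%), 59 higher (0.306%) and 81 lower (0.42%), and 1375 in F191G (7.13%), 613 higher (3.18%) and 762 lower (3.95%). Without WT replicate A the counts were 616 for DQD against VEC, 844 for WT against VEC, 0 for AQA against WT and 150 for F191G against WT. The replication list had a median of 0.04 in DQD minus VEC, with 0 of 58 higher, and of -0.86 in WT minus VEC, with 41 lower. In AQA minus WT its median was 0.69, with 0 higher, and in F191G minus WT 0.81, with 11 higher. The mitosis list had 0.15 in DQD minus VEC and -0.81 in WT minus VEC, with 15 lower in the latter. The growth restraint list had 0.0 and 0.42, with 14 higher in WT. The interferon list had 0.94 in DQD minus VEC, with 13 of 55 higher, and 0.87 in WT minus VEC, with 35 higher.

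The number of genes called between DQD and AQA depended on the arrays and the model. With all arrays 5 passed (0.0259%), 4 higher (0.0207%) and 1 lower (0.00518%), with 2811 at an unadjusted p under 0.05. Without WT replicate A, an array of neither group, 162 passed (0.84%), without batch 156 and with array weights 1670, while 0 passed without DQD replicate A and 0 without DQD replicate C. Against F191G 1 passed, lower in DQD (0.00518%), and 1 without WT replicate A, with 1746 at an unadjusted p under 0.05 and 0 called higher (0.0%). Folh1, which encodes prostate-specific membrane antigen, read 10.15, 9.88 and 10.02 in DQD, 8.37, 8.97 and 8.88 in AQA and 9.61, 9.59 and 9.74 in WT. It was higher in DQD than in AQA by 1.27 (SE 0.162, adjusted p = 0.0179) and not called against WT (0.37, adjusted p = 0.108). Atp6v1b2, a proton pump subunit gene, was higher than in AQA by 0.62 (adjusted p = 0.0179), Gtf2h1, a subunit gene of transcription factor TFIIH, by 0.55 (adjusted p = 0.0477) and Dlg5, a polarity gene, by 0.42 (adjusted p = 0.0477). Dcps, which degrades messenger RNA caps, differed by -0.56 (adjusted p = 0.0131), at 9.78 to 9.79 in DQD against 10.28 to 10.39 in AQA.

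S1pr2, a receptor gene for sphingosine-1-phosphate, was the gene called between DQD and F191G. It read 7.78, 7.87 and 7.93 in DQD, 8.5, 8.36 and 8.33 in F191G and 8.38, 8.42 and 8.34 in WT, so the DQD arrays lay below the arrays of both other groups. It differed by -0.54 from F191G (SE 0.063, adjusted p = 0.0239) and by -0.52 from WT (SE 0.065, adjusted p = 0.00747). It was not called against AQA (-0.37, adjusted p = 0.0604) or VEC (-0.24, adjusted p = 0.0695).

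The replication list had a median of 0.2 in DQD minus AQA and 0.09 in DQD minus F191G, with 0 of 58 higher in each. The mitosis list had 0.13 and 0.11. Pdcd4 differed by -1.07 from AQA (SE 0.239, adjusted p = 0.108) and by 0.03 from F191G (adjusted p = 0.979), and Myc by 0.61 from AQA (SE 0.154, adjusted p = 0.136). In the interferon list the median was 0.61 in DQD minus AQA, where 31 of 55 were higher and 2 lower at an unadjusted p under 0.05 and 0 were called. AQA replicate A (0.90 relative to VEC) lay among the DQD arrays, and AQA replicates B and C (0.08 and 0.16) lay below them. A test that did not pass does not show that the forms act alike.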

How the data were processed

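RNA of 15 Myc-CaP samples was hybridised to single-colour Affymetrix Mouse Gene 1.0 ST arrays. The deposited log2 values of 23811 probe sets were made by the authors with RMA, and limma is also named, per the submitters' processing notes, which give no versions. A further scaling by Twist1 expression is mentioned in the design text without its form, so its effect on the values is unknown. Averaged over the groups, the values also hold no batch difference (largest fitted batch coefficient 5e-09), and the step that made this is not stated.

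Of the probe sets, 20852 carry 1 symbol in the platform annotation; the brightest per symbol was kept (19297 genes, no filter). Each gene's model held group and labelled batch over the 15 arrays (limma 3.58.1, R 4.3.3; tested on simulated data). P-values were adjusted by Benjamini and Hochberg over all genes, and genes under 0.05 were called. Differences are DQD minus WT on the log2 scale, and the number of arrays limits their precision.

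Named genes are the 15 largest called rises and 15 largest called falls (clone names passed over), up to 4 members of each of 31 lists by smallest p, fixed core members, and Twist1. Genes called against AQA or F191G and other called list members were named after their values were seen. The comparison and lists were chosen with earlier results of these data known. Alternatives were other models, scalings, filters and array sets. Promoter windows are from RefSeq (GRCm38.p6), and 212 of 278 named genes matched.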

Additional observations from a re-analysis of the deposited data

How the results depend on the processing

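The 4735 called genes kept their direction without WT replicate A, without DQD replicate A and within each batch. Of the 177 called genes that the rules for named genes picked or that were called against AQA or F191G, 0 reversed under any alternative run. Some called list members named above were not in this count. In most called genes the DQD and WT arrays did not overlap, so the kept direction was largely fixed in advance. The count of genes called between DQD and WT (4735; 2272 higher, 2463 lower; 480 list members) was 2646 (1228 and 1418; 294) with the replicate letter as a block beside batch, 330 (163 and 167; 92) within batch B, 0 within batch A and 0 with the 6 arrays compared alone, where limma left 5251 genes at an unadjusted p under 0.05. Correlations of same-letter deviations from the group means were -0.576, -0.347 and -0.056. Such deviations cancel within each group, so these values cannot settle whether the letters pair the arrays. The block is given as a check. Median centring gave 3677 higher and 999 lower, and a second quantile normalization 1578 lower. Leaving out an array gave 0 to 5353 genes (0 without DQD replicate A), with 0 to 2605 higher, 0 to 2748 lower and 0 to 524 list members. For DQD against AQA the 5 calls became 156 without batch (with all arrays this term moves no difference and uses a degree of freedom), 0 and 3 with the block beside and in place of batch, 8 with the second quantile normalization, 28 with centring, 16 without the dimmest genes, 3 over all probe sets, 1670 with array weights, 0 and 29 within batches A and B, and 0 to 162 with an array left out (162 without WT replicate A). For DQD against F191G the 1 call became 0 with either block, with centring, with Twist1 as a covariate or within a batch, 2 with array weights, and 0 to 1 with an array left out. The cause of these moves was not tested.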

Other observations

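The genes with the smallest p were not those with the largest change, and they were chosen here after their values were seen. Pcolce, whose protein enhances procollagen processing, read 11.56, 11.77 and 11.66 in DQD replicates A, B and C and 12.53, 12.3 and 12.46 in WT, a difference of -0.77 (SE 0.0843, limma adjusted p = 0.00709). Its difference was -0.72 without WT replicate A, -0.85 within batch A and -0.74 within batch B. The VEC arrays read 11.97, 11.9 and 11.76. Tm6sf2, a gene of lipid export, read 6.11, 6.11 and 6.15 in DQD and 6.98, 6.85 and 6.71 in WT and fell by 0.73 (adjusted p = 0.00709). The Wnt receptor gene Fzd2 fell by 0.48, Map3k14, a kinase gene of the NF-kB pathway, by 0.93 and Reep6, an endoplasmic reticulum gene, by 1.03. Among the 12 smallest p, Gon4l was the gene that rose, by 0.45 (adjusted p = 0.00747), at 8.42, 8.4 and 8.33 in DQD and 7.87, 7.96 and 7.96 in WT. Each of these 12 genes had an adjusted p of 0.0694 without DQD replicate A.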
